A study of Mus musculus with 18 samples.

Results

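The genes followed here mark the epithelium of the choroid plexus in the P25 mouse brain: Ttr, Kl, Folr1, Clic6, Kcnj13, Aqp1, Otx2, Prlr, Slc4a5 and Sostdc1. They were chosen by name as a fixed list of 10 among the 53468 genes of the count table, and each was measured in all 18 libraries. The libraries are poly(A) mRNA sequencing of dissected forebrain, midbrain and hindbrain from 3 Fmr1CRE mice and 3 wild-type (WT) mice of a single litter, so that each mouse gave 1 library per region and each group of region and genotype holds 3 mice. Fmr1CRE mice carry, by CRISPR/Cas9 knock-in on a C57BL/6 background, a single-base change in a regulatory element predicted to control Fmr1, at the place orthologous to a human variant. Several lines were made, and which of them gave these mice is not given in the sources used here. The mice were male, and no treatment is named for any group. The library names give the mouse number, so that the 3 libraries of a mouse can be paired.

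The choroid plexus is a sheet of epithelial cells around a vascular core in each brain ventricle. It makes the cerebrospinal fluid, and its epithelium carries out transport between blood and fluid. A forebrain dissection can hold the plexus of the lateral ventricles and a hindbrain dissection that of the fourth ventricle, whereas the aqueduct of the midbrain has no plexus of its own. The plexus of the third ventricle lies over the habenula and thalamus, and which dissected piece held it is not given in the sources used here. Ttr encodes transthyretin, the carrier of thyroid hormone that the plexus secretes. Kl (klotho, the co-receptor for FGF23), Folr1 (folate receptor alpha) and Prlr (the prolactin receptor) act at the cell surface. Clic6, Kcnj13 (the potassium channel Kir7.1), Aqp1 (a water channel) and Slc4a5 (a sodium bicarbonate cotransporter) encode channels and transporters. Otx2 is a homeodomain transcription factor needed to form and keep the plexus, and Sostdc1 is a secreted inhibitor of BMP and Wnt signalling.

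Promoter windows running from 250 bases before to 50 bases after an annotated start (RefSeq, build GRCm38.p6) were at hand for 6 of the 10 genes: Kl, Kcnj13, Aqp1, Otx2, Prlr and Slc4a5. Folr1, Clic6, Sostdc1 and Ttr are named only. The 11 windows of these 6 genes were searched on both strands for TAATCC, the core that Otx-type homeodomains bind, which reads GGATTA on the other strand. The letters stood in 1 of 11 windows, at an internal start of Otx2 itself, 211 bases before that start, against 7.06% of all 32851 promoter windows. The windows of 3 genes are printed in lower case, 5′ to 3′ on the gene's strand, with a match in capitals: that of Otx2, which holds the match, and those of Kcnj13 and Slc4a5, the genes with the widest region differences among the 6.
Otx2, chr14:48665060-48665359, minus strand: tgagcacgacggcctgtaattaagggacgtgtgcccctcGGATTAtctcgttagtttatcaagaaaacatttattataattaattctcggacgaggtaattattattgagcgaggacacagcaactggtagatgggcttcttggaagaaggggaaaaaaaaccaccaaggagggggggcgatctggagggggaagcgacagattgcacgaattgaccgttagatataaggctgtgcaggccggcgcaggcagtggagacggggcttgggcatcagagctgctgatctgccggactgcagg
Kcnj13, chr1:87394680-87394979, minus strand: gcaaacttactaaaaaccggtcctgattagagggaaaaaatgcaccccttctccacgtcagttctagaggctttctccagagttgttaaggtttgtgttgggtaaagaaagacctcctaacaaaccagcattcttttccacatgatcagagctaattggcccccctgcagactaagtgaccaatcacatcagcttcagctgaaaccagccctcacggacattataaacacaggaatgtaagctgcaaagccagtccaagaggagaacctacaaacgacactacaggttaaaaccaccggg
Slc4a5, chr6:83237125-83237424, plus strand: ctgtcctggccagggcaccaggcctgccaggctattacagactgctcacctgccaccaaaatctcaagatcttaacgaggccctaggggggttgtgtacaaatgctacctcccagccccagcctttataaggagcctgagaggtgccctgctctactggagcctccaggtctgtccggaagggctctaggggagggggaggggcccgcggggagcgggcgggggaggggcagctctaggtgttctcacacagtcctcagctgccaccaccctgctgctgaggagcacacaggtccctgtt
The share of G and C differed between them, at 51.0% for Otx2, 46.0% for Kcnj13 and 62.7% for Slc4a5, against a median of 52.7% over all windows. A match is a description of letters and not a binding site, and the windows without one say nothing of the factor.

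The libraries held 22455512 to 28061185 counts each. Fmr1 itself lay between 51.1 and 83.4 CPM (counts-per-million, scaled by TMM, edgeR's factor for library composition) in the 18 libraries, and its Fmr1CRE and WT ranges overlapped in every region. The edit changes a regulatory element and removes no part of the transcript, so that the level of Fmr1 is no check of the genotype labels. Each list of region markers had its highest median sum in the region of its label. The 10 forebrain markers summed to 579 to 961 CPM in forebrain, 251 to 457 CPM in midbrain and 67.6 to 103 CPM in hindbrain. The 12 hindbrain markers summed to 445 to 867 CPM in hindbrain, 123 to 289 CPM in midbrain and 11.9 to 17.2 CPM in forebrain. The midbrain libraries thus held signal of both other lists, in amounts that varied between libraries, and its source was not tested. The 10 midbrain markers summed to 45.4 to 105 CPM in midbrain, 39.6 to 54.7 CPM in hindbrain and 6.58 to 13.6 CPM in forebrain, and the 8 genes of midbrain dopaminergic neurons to 168 to 243, 44.7 to 98.7 and 23.3 to 54.5 CPM. The forebrain libraries of the mice numbered 3 were left out of further fits. Over all genes, deviations from the group mean in the Fmr1CRE forebrain library correlated with those of the hindbrain library of its own labelled mouse at r = -0.17 and with those of the WT mouse of number 3 at r = 0.216. With the midbrain libraries of the same mice it had r = -0.032 and r = -0.149. The WT forebrain library of number 3 had r = -0.0205 with the hindbrain library of its own mouse and r = -0.000642 with that of Fmr1CRE mouse 3, and with the midbrain libraries r = -0.0846 and r = 0.0695 in the same order. Whether libraries of these mice were exchanged was not tested. The tests between genotypes in forebrain and between regions were repeated without both libraries, whereas ratios and correlations use all 6 libraries of each region.

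Ttr was by far the most abundant of the 10 genes. Per length, as TPM (transcripts-per-million, computed from the counts and pooled transcript lengths), its median was 257, 116 and 614 for forebrain, midbrain and hindbrain, over 6 mice each. It took 81.2% to 95.6% of the counts of the 10 genes in a library, and in hindbrain it ranked between the 49th and the 166th gene of the library by TPM. The other 9 genes were low, with median TPM from 0.253 for Slc4a5 in midbrain to 22.7 for Kcnj13 in hindbrain. In hindbrain the order by median TPM was Ttr, Kcnj13, Folr1 at 8.38, Clic6 at 3.90, Otx2 at 3.01, Sostdc1 at 1.59, Prlr at 1.14, Kl at 1.11, Aqp1 at 1.06 and Slc4a5 at 0.968. The last 5 of these overlapped in their ranges over the 6 libraries. Kcnj13 (chr1:87386363-87394729, minus strand) lies inside Gigyf2, which runs on the other strand; 49.1% of its exon bases overlap exons of that gene and 44.8% of its 31-base sequences occur in transcripts of other genes. The pooled effective length of Kcnj13 was 335 bases, although 95.1% of its reads were given to a transcript of 1270 bases. A short length raises TPM, and in CPM its hindbrain median was 16.6, beside 17.7 for Clic6. The values of Kcnj13 and its place in the order by TPM are therefore uncertain, and how the strand of reads was handled is not given in the sources used here. No other member had more than 3.98% of its exon bases in another gene.

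**Figure D1:**
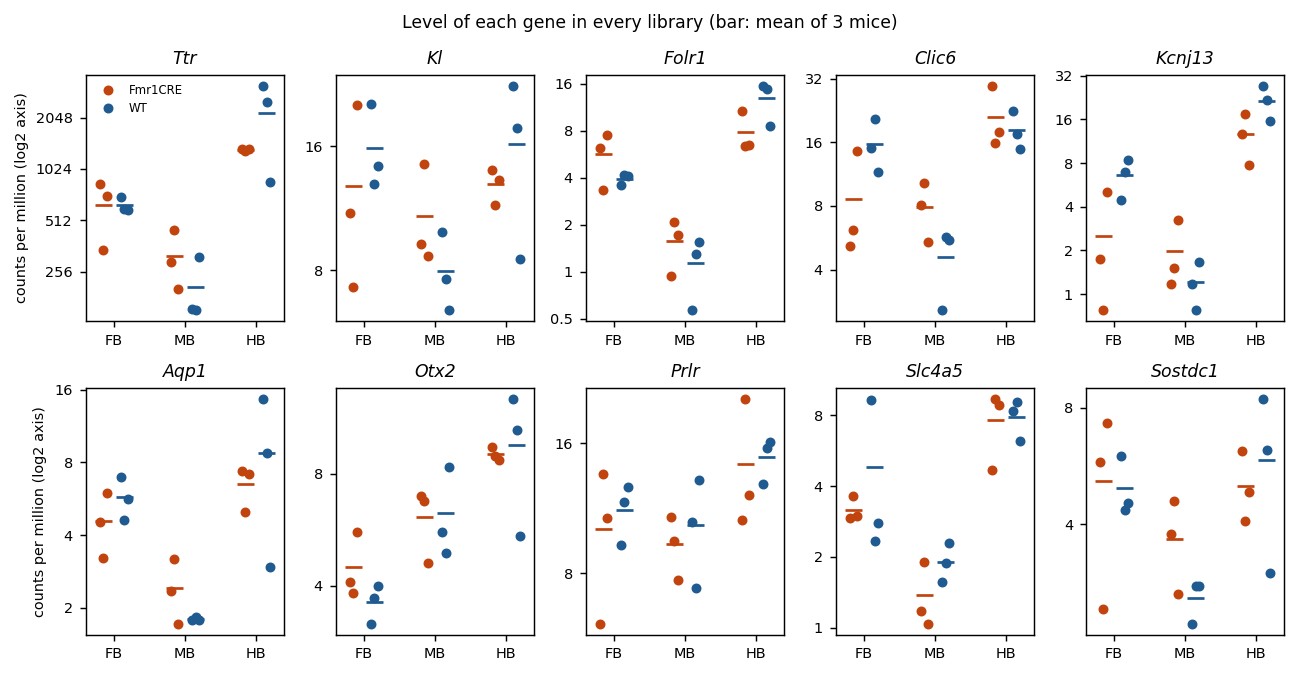
CPM of the 10 genes in each of the 18 libraries, on log2 axes of their own, by region (FB, forebrain; MB, midbrain; HB, hindbrain) and genotype (Fmr1CRE orange, WT blue); points are single mice and bars are means of 3. Ttr lies between 152 and 452 CPM in midbrain and between 861 and 3147 CPM in hindbrain, with no overlap.

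The first comparison asked how the genes differ between regions, over the 6 mice of both genotypes. All 10 genes were higher in hindbrain than in midbrain by edgeR's quasi-likelihood test with Benjamini-Hochberg adjustment (adjusted p under 0.05), where 24% of the 20363 genes tested were called higher. The median log2 fold change of the 10 was 1.78, beside 0.03 over all genes. These are bulk tissue samples, so that fewer plexus cells, less RNA per cell and expression in other cells cannot be told apart. The amount of plexus left on each piece at dissection is not given in the sources used here.

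Ttr, the secreted carrier, had 152, 248 and 452 CPM (lowest, median and highest of 6 libraries) in midbrain, 345, 647 and 841 CPM in forebrain and 861, 1338 and 3147 CPM in hindbrain. Every hindbrain library was above every library of the other regions, whereas forebrain and midbrain overlapped. The log2 fold change of hindbrain against midbrain was 2.74 ± 0.31 (SE; 95% interval 2.07 to 3.40; adjusted p = 3.78e-06). Within single mice the ratio of hindbrain to midbrain ran from 2.74 to 20.4, with hindbrain higher in 6 of 6 mice.

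Among the surface receptors, Folr1 had 0.566, 1.42 and 2.09 CPM in midbrain, 3.33, 4.13 and 7.45 CPM in forebrain and 6.42, 9.61 and 15.5 CPM in hindbrain. Its midbrain libraries were below all of the other 12. The log2 fold change of hindbrain against midbrain was 2.90 ± 0.28 (SE; adjusted p = 5.8e-07). Kl and Prlr differed far less. Kl had 6.40, 8.97 and 14.5 CPM in midbrain and 8.53, 13.6 and 22.4 CPM in hindbrain, ranges that overlap, with a log2 fold change of 0.64 ± 0.25 (SE; adjusted p = 0.0466). Prlr had 7.38, 9.99 and 13.2 CPM in midbrain and 10.7, 14.2 and 20.3 CPM in hindbrain, also with overlap, and a log2 fold change of 0.57 ± 0.20 (SE; adjusted p = 0.0289).

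Of the channels and transporters, Kcnj13 had the widest spread between regions, with 0.775, 1.35 and 3.25 CPM in midbrain, 0.782, 4.73 and 8.37 CPM in forebrain and 7.78, 16.6 and 27.2 CPM in hindbrain. Hindbrain was above midbrain without overlap, at a log2 fold change of 3.41 ± 0.40 (SE; adjusted p = 4.26e-06). Slc4a5 had 1.04, 1.72 and 2.29 CPM in midbrain, 2.34, 2.95 and 9.28 CPM in forebrain and 4.69, 8.59 and 9.37 CPM in hindbrain. The forebrain value of 9.28 CPM came from 1 WT mouse, and the other 5 forebrain libraries were at or below 3.62 CPM. Clic6 had 2.57, 5.61 and 10.3 CPM in midbrain and 14.8, 17.7 and 29.6 CPM in hindbrain, without overlap. Aqp1 had 1.72, 1.81 and 3.18 CPM in midbrain and 2.96, 7.25 and 14.6 CPM in hindbrain, where 1 WT mouse overlapped the midbrain range. The log2 fold changes of hindbrain against midbrain were 2.25 ± 0.31 for Slc4a5, 1.70 ± 0.28 for Clic6 and 1.85 ± 0.30 for Aqp1 (SE).

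Otx2, the transcription factor, followed another order. It had 3.17, 3.91 and 5.58 CPM in forebrain, 4.61, 6.16 and 8.35 CPM in midbrain and 5.45, 9.16 and 12.7 CPM in hindbrain, and midbrain was above forebrain in 5 of 6 mice. Sostdc1, the secreted inhibitor, had 2.22, 2.77 and 4.59 CPM in midbrain, 2.43, 5.17 and 7.28 CPM in forebrain and 3.00, 5.51 and 8.41 CPM in hindbrain. The 3 ranges of Sostdc1 overlapped, and its log2 fold change of hindbrain against midbrain was 0.82 ± 0.27 (SE; adjusted p = 0.0186).

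Against forebrain, 6 of the 10 genes were higher in hindbrain, where 25.3% of all genes were called higher: Ttr (log2 fold change 1.43 ± 0.30), Folr1 (1.09 ± 0.26), Clic6 (0.76 ± 0.27), Kcnj13 (2.02 ± 0.37), Otx2 (1.20 ± 0.20) and Slc4a5 (0.99 ± 0.30). Kl at 0.02 (95% interval -0.51 to 0.56), Sostdc1 at 0.10 (-0.45 to 0.66), Aqp1 at 0.56 (-0.04 to 1.16) and Prlr at 0.45 (0.02 to 0.88) did not pass, with adjusted p = 0.946, 0.768, 0.111 and 0.0734 by edgeR. Midbrain was lower than forebrain for 6 genes, where 9.38% of all genes were called lower, and higher for 1, Otx2, where 9.96% were called higher. The 6 lower genes were Folr1 (log2 fold change -1.81 ± 0.28), Kcnj13 (-1.38 ± 0.39), Ttr (-1.30 ± 0.30), Aqp1 (-1.29 ± 0.30), Slc4a5 (-1.26 ± 0.31) and Clic6 (-0.94 ± 0.28), and Otx2 was at 0.62 ± 0.20. Kl at -0.62 ± 0.26, Sostdc1 at -0.71 ± 0.27 and Prlr at -0.12 ± 0.20 did not pass, and all of these errors are SE.

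**Figure D2:**
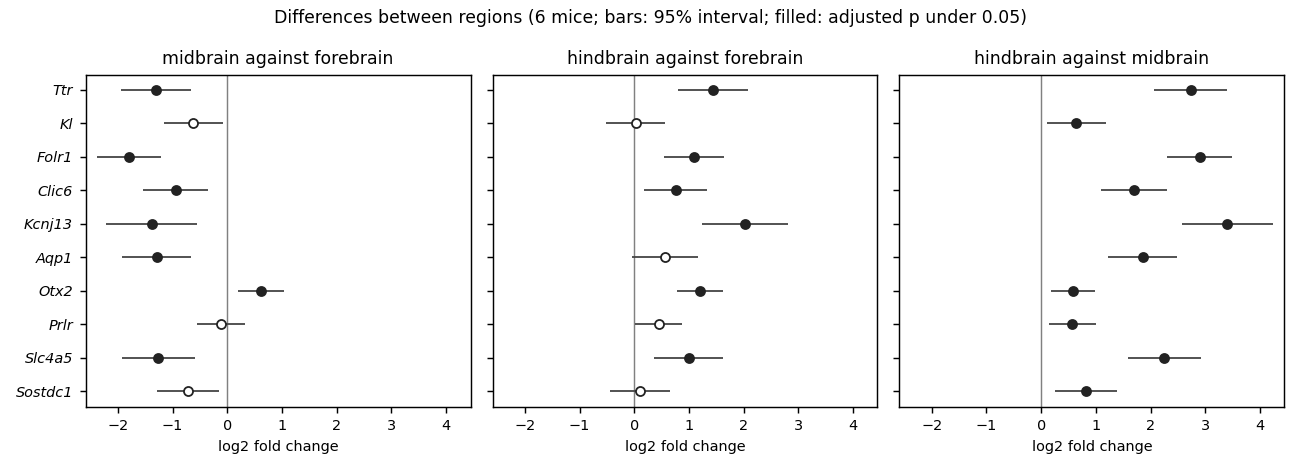
Log2 fold change of each of the 10 genes between pairs of regions (x axis; bars are 95% intervals from edgeR over 6 mice), with filled points where adjusted p was under 0.05. All 10 points are filled and above 0 for hindbrain against midbrain, 6 for hindbrain against forebrain, and for midbrain against forebrain 6 lie below 0 and Otx2 above it.

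Several of these calls turned on single settings. With the mouse as a block, the 3 regions of a mouse being paired, the counts were 9 of 10 for hindbrain against midbrain (Kl at adjusted p = 0.0654), 6 for hindbrain against forebrain (Clic6 lost at adjusted p = 0.127, Prlr gained at 0.0330) and 4 for midbrain against forebrain (Clic6, Kcnj13 and Otx2 lost, at adjusted p = 0.101, 0.0699 and 0.0721). Leaving out Fmr1CRE mouse 3, WT mouse 1 or WT mouse 2 left 6 of 10 for hindbrain against midbrain each time, and leaving out Fmr1CRE mouse 1, WT mouse 1 or WT mouse 2 left 4, 3 and 4 for midbrain against forebrain. Calls over all genes fell in these fits too, from 9994 to 8760, 7841 and 8255, and from 3939 to 2592, 2258 and 2337. Without both forebrain libraries of number 3, 10 members were called for hindbrain against midbrain, 5 for hindbrain against forebrain and 5 for midbrain against forebrain. Kcnj13 then went from -1.38 to -0.78 on the log2 scale for midbrain against forebrain. In Fmr1CRE mice alone and in WT mice alone that difference was -0.34 and -2.43 for Kcnj13 and -0.12 and -1.77 for Clic6, and neither gene passed the test of the interaction of genotype and region. Clic6 moved from -0.94 to -0.53 without Fmr1CRE mouse 3, Slc4a5 from -1.26 to -0.75 without WT mouse 1, and for hindbrain against forebrain Clic6 moved from 0.76 to 0.46 without Fmr1CRE mouse 1.

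Other plexus genes and markers of neighbouring cells were counted in the same tests. Of 30 further genes known from choroid plexus epithelium, 15 were higher and 0 lower in hindbrain than in midbrain, with a median log2 fold change of 0.68. Over all genes, 24% were called higher and 25.1% lower there. Against forebrain, 13 were higher and 1 lower in hindbrain, the 1 being Car12, a carbonic anhydrase, at -0.94 ± 0.23 (SE; chosen after its value was seen). In that comparison 25.3% of all genes were called higher and 26.4% lower. For midbrain against forebrain, 3 were lower (Kcne2, Abca4 and Tmem72) and 3 higher (Htr2c, Igf2 and Lmx1a; all 6 named after their values were seen). These counts of 30 lie near the shares of all genes, at 9.38% lower and 9.96% higher. Kcne2, a potassium channel subunit, had a log2 fold change of 3.15 ± 0.34 for hindbrain against midbrain, and Htr2c, a serotonin receptor that neurons express too, had 0.76 ± 0.16 for midbrain against forebrain (SE).

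Red blood cell genes moved with the region as well. The 5 globin and heme synthesis genes summed to 1058 to 2706 CPM in hindbrain, 441 to 1020 CPM in midbrain and 505 to 1546 CPM in forebrain, and all 5 were higher in hindbrain than in either region. Over all genes, 24% were called higher in hindbrain than in midbrain and 25.3% higher than in forebrain. The 15 ependymal and cilia genes summed to 75.0 to 113 CPM in hindbrain, 80.2 to 119 CPM in midbrain and 88.5 to 145 CPM in forebrain, and 4 were higher and 1 lower in hindbrain than in midbrain, where 25.1% of all genes were called lower. Against forebrain 1 ependymal gene was higher and 6 were lower in hindbrain, where 26.4% of all genes were called lower, and 2 were lower in midbrain. The 12 fibroblast genes of the meninges summed to 182 to 254 CPM in hindbrain, 174 to 261 CPM in midbrain and 128 to 182 CPM in forebrain. Of these 12, 2 were higher and 1 lower in hindbrain than in midbrain, 7 were higher in hindbrain than in forebrain, and 5 were higher in midbrain than in forebrain. Between the last 2 regions, 9.96% of all genes were called higher in midbrain and 9.38% lower. The 7 macrophage genes of brain borders stayed between 8.11 and 15.1 CPM in sum in all libraries. No gene of these 4 lists was at 0 in all libraries of a region, and the part of these cells in the members' differences was not tested. The 8 pineal genes summed to 2.56 to 10.5 CPM, and Asmt, which makes melatonin, was at or under 3 counts in the median library of every region. The habenula and thalamus list of 8 genes summed to 157 to 330 CPM in forebrain, 375 to 459 CPM in midbrain and 365 to 453 CPM in hindbrain. Of these 8, 4 were higher and 1 lower in midbrain than in forebrain. In hindbrain, 3 were higher and 3 lower than in forebrain, and 1 was higher and 3 lower than in midbrain. The genes went different ways, so that the sum does not show which piece held that tissue.

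The members did not keep 1 ratio to each other across regions. Per 1000 counts of Ttr in the same library, Otx2 had 14.9, 25.1 and 36.1 counts in midbrain (lowest, median and highest of 6), 4.54, 6.48 and 11.1 in forebrain and 4.03, 6.42 and 7.03 in hindbrain, so that midbrain was above both other regions without overlap. Kl had 20.4, 37.4 and 64.0 in midbrain against 6.98, 9.34 and 10.5 in hindbrain, again without overlap. Prlr, Sostdc1 and Aqp1 likewise had higher ratios in midbrain than in hindbrain in every library, with medians that differed 4.70-, 3.94- and 1.96-fold. Folr1, Clic6, Kcnj13 and Slc4a5 overlapped between all 3 regions in their ratio to Ttr. These ratios compare libraries and have no test, and they share the Ttr count. Ttr itself was 2.74- to 20.4-fold higher in hindbrain than in midbrain within single mice. A gene with a smaller difference than Ttr therefore has a higher ratio in midbrain, whatever its function. The share of all genes with such ratios is not given here.

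The second comparison asked whether the Fmr1CRE and WT mice differ. None of the 10 genes passed in any region by edgeR, with 0%, 0.00543% and 0% of all genes called in forebrain, midbrain and hindbrain, nor in the counts summed over the 3 regions of a mouse, where 0.00451% were called. The lowest adjusted p of a member was 0.807 for forebrain, 0.809 for midbrain, 0.875 for hindbrain and 0.998 for the sums. At an unadjusted p under 0.05 there were 1 member in forebrain, 0 in midbrain, 2 in hindbrain and 1 in the sums, of 10 each, beside 5.43%, 6.17%, 5.13% and 3.7% of all genes tested. DESeq2 called 0 members in each region and 1, Kcnj13, in the sums. Over all genes it called 31 of 18467 in forebrain, 62 of 18400 in midbrain, 60 of 19112 in hindbrain and 29 of 22191 in the sums.

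Ttr in forebrain had 841, 345 and 713 CPM in the 3 Fmr1CRE mice and 698, 596 and 591 CPM in the 3 WT mice. In midbrain it had 293, 452 and 203 CPM in Fmr1CRE and 155, 152 and 314 CPM in WT. In hindbrain it had 1339, 1313 and 1336 CPM in Fmr1CRE and 3147, 2542 and 861 CPM in WT. The hindbrain values of Fmr1CRE lay close together, at 1329 ± 14.1 CPM (SD, n = 3), and those of WT were spread on both sides of them, at 2184 ± 1184 CPM (SD, n = 3). The log2 fold changes of Fmr1CRE against WT were, for forebrain, midbrain and hindbrain in turn, 0.05 (95% interval -0.64 to 0.73), 0.60 (-0.25 to 1.45) and -0.73 (-1.66 to 0.19). Single mice moved these values: leaving out 1 mouse at a time gave -0.25 to 0.34 for forebrain, 0.26 (without Fmr1CRE mouse 2) to 1.04 (without WT mouse 3) for midbrain and -1.11 (without WT mouse 3) to -0.36 (without WT mouse 1) for hindbrain.

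Kcnj13, the channel whose reads overlap Gigyf2, had the lowest unadjusted p. In forebrain it had 1.74, 0.782 and 5.02 CPM in Fmr1CRE and 4.44, 6.89 and 8.37 CPM in WT, and in hindbrain 12.6, 17.5 and 7.78 CPM in Fmr1CRE and 27.2, 21.8 and 15.6 CPM in WT. Both pairs of groups overlapped. In midbrain it had 1.18, 1.52 and 3.25 CPM in Fmr1CRE and 1.18, 0.775 and 1.68 CPM in WT. In the sums over regions the groups did not overlap, with 5.33 to 6.86 CPM in Fmr1CRE and 8.12 to 11.7 CPM in WT. Kcnj13 was the only member without overlap in any of these 4 comparisons, while groups without overlap made up 10.2%, 11.3% and 10.9% of all genes in the 3 regions and 8.08% in the sums. Its log2 fold change in the sums was -0.78 ± 0.17 (SE), with adjusted p = 0.998 by edgeR and 0.0171 by DESeq2, which called 29 genes there.

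Folr1 in hindbrain had 10.7, 6.42 and 6.44 CPM in Fmr1CRE and 15.5, 14.7 and 8.57 CPM in WT, with overlap, and a log2 fold change of -0.73 (95% interval -1.42 to -0.05). In forebrain it had 6.23, 3.33 and 7.45 CPM in Fmr1CRE and 3.56, 4.15 and 4.11 CPM in WT. Clic6 in forebrain had 5.17, 6.17 and 14.5 CPM in Fmr1CRE and 15, 20.7 and 11.6 CPM in WT, with a log2 fold change of -0.86 (-1.76 to 0.04), and in midbrain 8.06, 10.3 and 5.37 CPM in Fmr1CRE and 2.57, 5.71 and 5.51 CPM in WT, with 0.77 (-0.04 to 1.59). The other 6 genes had log2 fold changes between -0.56 and 0.50 in the 3 regions. For 8 of the 10 genes the 95% interval of at least 1 region reached past 1 or -1 on the log2 scale, so that a change of that size is not excluded there. Without both forebrain libraries of number 3, 0 members were called in forebrain, and the log2 fold changes there were -1.60 for Clic6, -2.11 for Kcnj13 and -0.80 for Kl, beside -0.86, -1.37 and -0.28 with them.

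**Figure D3:**
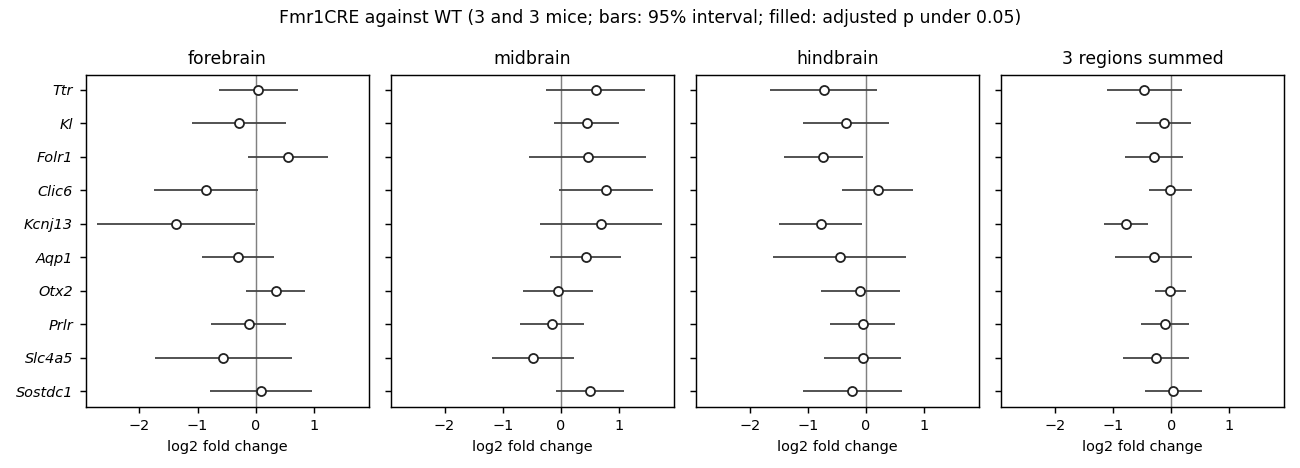
Log2 fold change of Fmr1CRE against WT for each of the 10 genes in forebrain, midbrain, hindbrain and the sum of the 3 regions (x axis; bars are 95% intervals from edgeR, 3 mice per genotype). No point is filled, since none had an adjusted p under 0.05.

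The signs differed by region. Fmr1CRE was above WT for 4, 7 and 1 of 10 genes in forebrain, midbrain and hindbrain respectively, with median log2 fold changes of -0.20, 0.45 and -0.29, beside medians of 0.000945, -0.00455 and -0.00909 over all genes. The interaction of genotype and region was called for 0 of the 10 genes by edgeR (lowest adjusted p = 0.660) and 0 by DESeq2. Over all 20363 genes tested, edgeR called 0% and DESeq2 called 51 genes. At an unadjusted p under 0.05 by edgeR the interaction held 3 of the 10 members, Folr1, Clic6 and Kcnj13, beside 7.54% of all genes. It also held 6 of the 8 hypothalamic markers, 3 of the 10 forebrain markers, 3 of the 10 midbrain markers and 2 of the 12 hindbrain markers. Of the 30 further plexus genes it held 0. In midbrain the summed level of 8 hypothalamic markers did not overlap between the genotypes, at 41.8 to 118 CPM in the Fmr1CRE libraries and 4.24 to 16.1 CPM in the WT libraries, but 0 of the 8 genes passed the test (lowest adjusted p = 0.107 by edgeR; 7 had an unadjusted p under 0.05). In forebrain they summed to 5.44 to 61.7 CPM in Fmr1CRE and 49.3 to 95.8 CPM in WT. Between genotypes in midbrain, 4 of 10 midbrain markers, 2 of 10 forebrain markers and 2 of 7 tested hindbrain markers had an unadjusted p under 0.05 by edgeR. The share over all genes was 6.17%. Median log2 fold changes of these 3 lists were -0.49, 0.07 and -0.56. The part of these markers in the members' values was not tested. Of the 30 further plexus genes, 27, 29 and 29 passed the filter and were tested in forebrain, midbrain and hindbrain. These had 0 calls in any region by edgeR, with median log2 fold changes of -0.06, 0.15 and -0.23 in the same order. In midbrain their highest values were 1.93 ± 0.56 for Cldn2, a claudin of the plexus barrier, and 1.47 ± 0.54 for Kcne2, and their lowest were -0.38 ± 0.37 for Trpv4, a cation channel, and -0.30 ± 0.19 for Perp (SE). Cldn2 at 0.72 ± 0.37 and Kcne2 at 0.43 ± 0.40 were the highest in forebrain too, where Slc13a4, a sulfate transporter, at -0.53 ± 0.24 and F5, a coagulation factor, at -0.47 ± 0.42 were the lowest. In hindbrain the keratins Krt18 at -1.07 ± 0.47 and Krt8 at -0.88 ± 0.45 were the lowest, and Slc2a12, a glucose transporter, at 0.26 ± 0.27 and Lmx1a, a homeodomain factor, at 0.19 ± 0.26 the highest. In the sums Krt18 at -0.51 ± 0.35 and Cldn3 at -0.49 ± 0.27 were the lowest, and Cldn2 at 0.37 ± 0.40 and Kcne2 at 0.32 ± 0.22 the highest, none of them called.

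A further comparison asked how closely the other 9 genes follow Ttr from mouse to mouse within a region, on log2 CPM over 6 libraries. Of 27 relations, 25 had a positive Pearson r. One passed adjustment over the 27 by an exact permutation test over the 720 pairings, that of Kl in hindbrain (r = 0.97, exact p = 0.00139, the smallest these permutations can give, adjusted p = 0.0375; Spearman's rho = 1, exact p = 0.00278, adjusted p = 0.0250). Without the 2 libraries farthest from the median of Ttr its r was 0.94 over 4 libraries. Those 4 were WT mouse 3, at 861 CPM of Ttr, and the 3 Fmr1CRE mice, at 1313 to 1339 CPM. That r thus rests mainly on 1 library against a close group, so that it cannot show whether the relation holds without extremes. The ranks behind rho in hindbrain also separate those 3 close values. With CPM from total counts alone the relation of Kl had adjusted p = 0.0563 for r by the same exact test. Aqp1 and Sostdc1 in hindbrain had r = 0.92 and r = 0.89, both with rho = 1 and adjusted p = 0.0250 for rho by the exact test, and adjusted p = 0.0656 for r. With total counts alone Kl, Aqp1 and Sostdc1 each had rho = 0.94 with adjusted p = 0.0900 by the exact test, so that none of the 3 passed by rho either. Within a genotype there are 3 libraries per region, too few for a value, so that genotype and level cannot be told apart in these relations.

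Prlr went the other way in forebrain, with r = -0.77 (exact p = 0.113, adjusted p = 0.276) and rho = -0.94 (exact p = 0.0167, adjusted p = 0.0900). In hindbrain its r was -0.16 and in midbrain 0.46, neither of which passed the exact test. Medians of r over the 9 genes were 0.47, 0.58 and 0.78 for forebrain, midbrain and hindbrain. The points of each relation share a library and its depth.

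Over all 18 libraries, after the mean of each region was subtracted, 37 of the 45 pairs of members had a positive Pearson r, with a median of 0.38. Aqp1 and Kl had the highest value at 0.88, followed by Aqp1 and Sostdc1. Prlr had the lowest mean r with the other members, at -0.10, and its lowest pair was with Sostdc1 at -0.41. Slc4a5 had a mean r of 0.08. These values describe libraries that share mice and depth and carry no p.

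**Figure D4:**
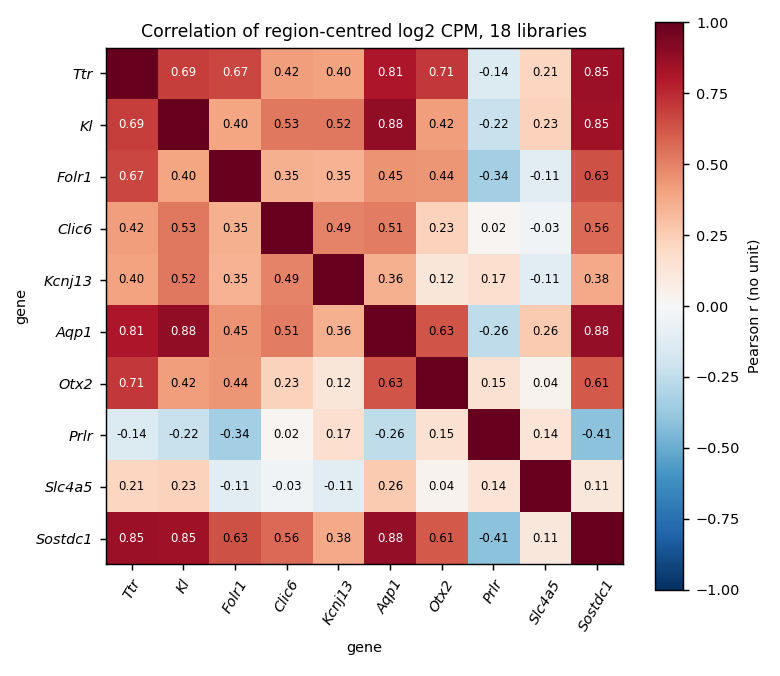
Pearson r between each pair of the 10 genes over the 18 libraries, computed on log2 CPM after subtraction of each region's mean (colour scale from -1 to 1; the diagonal is 1). Ttr, Kl, Aqp1 and Sostdc1 form a block of high values, and Prlr and Slc4a5 have rows near or below 0.

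By the same measure, the genes outside the list most like its 10 members had mean r values from 0.50 to 0.55 over 18 libraries, beside a median of 0.01 over all 20363 genes. They were, in order, Steap1, Rsph1, 2900040C04Rik, Cfap221, Enpp2, Pcca, Rarres2, Calml4, Polr2d and Krt8. Of these 10 genes, 4, Steap1, Enpp2, Calml4 and Krt8, also stand in the list of further plexus genes. The rest of that list of 30 was spread widely, from rank 15 for Col8a1 (mean r 0.49) to rank 9981 for Htr2c (mean r 0.009). Enpp2, which encodes the secreted enzyme autotaxin, had median levels of 382, 354 and 888 CPM in forebrain, midbrain and hindbrain. Steap1, a metalloreductase, had 1.06, 0.768 and 2.46 CPM. Rsph1 and Cfap221 encode parts of motile cilia, and Rarres2 also stands in the ependymal list.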

How the data were processed

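Total RNA of dissected forebrain, midbrain and hindbrain was made into poly(A) libraries and read as single-end 50-base reads on an Illumina instrument, in pools whose members are not given in the sources used here. The authors ran Salmon 0.14.0 in the bcbio_nextgen pipeline (mm10, per the submitters' processing notes) and imported the estimates per gene; the deposited table holds whole-number counts per gene, not normalized. The deposited expected counts per transcript were pooled over all 18 files, since 16 of 18 are attached to another library's record than their own name gives, and used only for transcript lengths and isoform shares. Variance-stabilized values by the authors (DESeq2 1.30.1) were not used. Symbols were taken from GENCODE M21; 37 genes without one held 0.0151% of counts.

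Counts were tested with edgeR 4.0.16 in R 4.3.3 (quasi-likelihood test, TMM, filterByExpr, Benjamini-Hochberg at 0.05), Fmr1CRE against WT within each region and in the sum of regions per mouse, and between regions over both genotypes. Standard errors are the size of the log2 fold change over the root of F. DESeq2 1.42.0, other scalings, filters, a block and leaving out mice were the alternatives. Log2 CPM used a prior count of 2. On simulated counts, edgeR recovered 165 of 195 genes changed by 1.5 on the log2 scale for hindbrain against midbrain with 4 false calls, and 112 of 184 for genotype in midbrain with 9. Depth is 22455512 to 28061185 counts per library; the members had 13 to 84927 counts, and counting error is largest for the lowest. Libraries of a group differed by far more than counting error (chi-square per gene at least 12.2), and each is a separate mouse.

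The regions of a mouse are paired by the mouse number in the titles; deviations of same-mouse libraries correlated at r = -0.17 to 0.178. The genotypes share only a replicate number. The members and lists were chosen with earlier results of these data known, and all 10 members are named. Of the further plexus genes, the 2 highest and 2 lowest per genotype comparison are named, and of all other genes the 10 most like the members.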

Additional observations from a re-analysis of the deposited data

How the results depend on the processing

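The region differences of Ttr, Folr1, Clic6, Kcnj13, Aqp1 and Slc4a5 kept their sign in hindbrain against midbrain and midbrain against forebrain under every alternative run. The counts of called members did not: with the replicate block (regions paired by mouse) 4 of 10 were called for midbrain against forebrain, beside 7 without it, and the block moved no other count by over 1.5 times. Fmr1CRE mice alone gave 1 and WT mice alone 4 for midbrain against forebrain, and Fmr1CRE mice alone gave 6 for hindbrain against midbrain; fewer samples enter these fits. Calls over all genes fell too, from 3939 to 527 and 1729 for midbrain against forebrain and from 9994 to 4847 for hindbrain against midbrain. Leaving out single mice gave 3 to 8 for midbrain against forebrain and 6 to 10 for hindbrain against midbrain. Over all genes those fits called 2258 to 4001 and 7841 to 9693. DESeq2 called 1 member in the genotype sums. With total counts alone 0 relations with Ttr passed by r, beside 1, and 0 by rho, beside 3; the cause was not tested.

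None of the genotype differences was called in edgeR, so that their signs are not settled. For Ttr in forebrain the log2 fold change turned to -0.0462 under the replicate block, where numbers alone are shared, and to -0.0649 without both forebrain libraries of number 3. For Sostdc1 in forebrain it turned to -0.0194 and -0.27 under the same settings. For Sostdc1 in hindbrain against forebrain it was -0.00508 in Fmr1CRE mice alone. Leaving out single mice turned the sign of further log2 fold changes. For genotype in forebrain the range was Ttr -0.25 to 0.34, Prlr -0.40 to 0.13, Slc4a5 -0.89 to 0.35, Sostdc1 -0.21 to 0.43. For genotype in midbrain the range was Otx2 -0.20 to 0.23, Prlr -0.35 to 0.0676. For genotype in hindbrain the range was Clic6 -0.13 to 0.39, Aqp1 -0.86 to 0.14, Otx2 -0.38 to 0.17, Prlr -0.38 to 0.11, Slc4a5 -0.23 to 0.19, Sostdc1 -0.55 to 0.12. For genotype in the sums the range was Kl -0.32 to 0.11, Clic6 -0.15 to 0.0919, Aqp1 -0.56 to 0.0595, Otx2 -0.0789 to 0.0619, Prlr -0.33 to 0.0187, Sostdc1 -0.13 to 0.22. For midbrain against forebrain the range was Prlr -0.31 to 0.0142. For hindbrain against forebrain the range was Kl -0.0894 to 0.26, Sostdc1 -0.013 to 0.28. Genes at few counts and groups of 3 mice limit these values.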
